A study of Mus musculus with 5 samples.

Results

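Trp53, which encodes the transcription factor p53, and 9 genes that act on p53, are known to be switched on by it or mark senescent cells were measured in alveolar type 2 (AT2), endothelial and mesenchymal cells of the mouse lung during repair after endotoxin. The 10 genes were taken by symbol from a fixed list and are 10 of the 31053 genes in the expression matrices. They are Trp53 itself, Mdm2, Cdkn1a, Cdkn2a, Cdkn2b, Gdf15, Ccng1, Phlda3, Bax and Sfn.

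p53 is kept low by the ubiquitin ligase Mdm2, whose own gene p53 switches on, and it accumulates when DNA is damaged or a cell is stressed. Its best known target is Cdkn1a, which encodes p21, an inhibitor of the cyclin-dependent kinases, and prolonged p21 or the Cdkn2a product p16 holds cells in senescence. In the alveolus AT2 cells make surfactant, divide after injury and give rise to the flat AT1 cells, and p53 target genes are known to be raised in the transitional cells between these states.

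Adult lungs were compared that carried floxed Itgb1 alleles, which encode the β1 integrin subunit. Itgb1 iKO mice carried an SP-C promoter-driven rtTA and a Tet-O-Cre transgene, so that doxycycline deleted Itgb1 in cells in which the surfactant protein C promoter was active. The controls, Itgb1 fl/fl, were littermates without these transgenes that had the same floxed alleles and drank the same doxycycline. After a period off doxycycline the mice received a single intratracheal dose of lipopolysaccharide (LPS) or of PBS. The 5 libraries were Itgb1 fl/fl with LPS, Itgb1 iKO with LPS and Itgb1 iKO with PBS at day 7, and Itgb1 fl/fl with LPS and Itgb1 iKO with LPS at day 21. PBS-treated Itgb1 fl/fl lungs were not analysed here, so whether the response to LPS depends on the genotype could not be tested. Each library pooled viable CD45- Ter119- cells of several mice that were told apart by hashtag antibodies, and 3 hashtags were in use in each. At day 21 sorted EPCAM+ cells had been added, so cell numbers are not compared between days.

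Barcodes were kept as cells when they held 700 or more genes and when 0.1 to 15% of their UMIs (unique molecular identifiers, each counting 1 captured RNA molecule) were mitochondrial. Cells were sorted into classes by a few lineage genes. AT2 cells had at least 5% of their UMIs from Sftpc, at least 1 Epcam UMI and none of Cdh5, Pecam1 and Col1a2. Endothelial cells had at least 2 Cdh5 or Pecam1 UMIs, and mesenchymal cells at least 2 Col1a2 UMIs, each without UMIs of the other lineages. Levels are counts-per-million (CPM), the UMIs of a gene scaled to all UMIs of the class, for a whole library with a 95% Poisson interval, which covers counting error only, or for the singly tagged cells of 1 mouse. The 5 libraries held 3469 to 11234 barcodes, of which 2224 to 8671 cells passed, with medians of 2219 to 5330 UMIs, and shared between 15 and 102 cell barcodes pairwise. The AT2 class held 119, 355 and 26 cells at day 7 (Itgb1 fl/fl LPS, Itgb1 iKO LPS, Itgb1 iKO PBS) and 176 and 1240 cells at day 21 (Itgb1 fl/fl, Itgb1 iKO), with medians of 7615 to 11251 UMIs. The endothelial class held 879 to 7976 cells and the mesenchymal class 103 to 553. The 10 AT2 markers fixed for the class, none of them used in the gate, summed to 62595 to 73078 CPM in AT2 cells and 378 to 3925 CPM in endothelial cells. The 10 immune markers summed to at most 10.9 CPM in AT2 cells, with Ptprc, Tyrobp, Cd3e and Marco at 0 in at least 4 of the 5 libraries.

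Itgb1 was lower but still detected in Itgb1 iKO AT2 cells. Its level in the 3 mice of each group was 258, 235 and 305 CPM in Itgb1 fl/fl and 214, 150.0 and 193 CPM in Itgb1 iKO with LPS at day 7. At day 21 it was 356, 319 and 372 CPM in Itgb1 fl/fl and 141, 178 and 146 CPM in Itgb1 iKO. The groups did not overlap on either day. The kit reads the 5′ end of transcripts, and whether the floxed part lies within the part read is not given in the sources used here, so remaining UMIs do not measure remaining protein.

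Sex was not balanced over the groups, and hashtag 1 of day 21 Itgb1 fl/fl carried Xist and Y-linked RNA at like levels. Both limit the genotype comparisons. At day 7 all 3 Itgb1 fl/fl mice carried Xist at 291 to 317 CPM and no Y-linked UMIs, while all 3 LPS-treated Itgb1 iKO mice carried Y-linked RNA at 147 to 157 CPM, so genotype, sex and library cannot be told apart there. At day 21 mouse 1 of Itgb1 fl/fl carried both Xist (92.5 CPM) and Y-linked RNA (83.2 CPM), so this hashtag is not a single mouse by these genes, whereas mice 2 and 3 carried Xist at 247 and 212 CPM and Y-linked RNA below 2 CPM. In Itgb1 iKO at day 21, mouse 1 carried mainly Xist and mice 2 and 3 Y-linked RNA. PBS mouse 1 was likewise set apart by Xist from the Y-carrying PBS mice 2 and 3. Where a call turned on these hashtags, the value without them is given too. Mouse numbers follow the hashtags within a library and pair no mice between libraries. Where the mice of groups are said not to overlap, this is a description. The share of all genes that separated so was not counted.

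The start regions of these genes differ in the letters p53 is known to bind. Windows from 250 bases before to 50 bases after an annotated start, from RefSeq on GRCm38.p6, were matched for 10 of 10 genes, with 13 windows in all because Cdkn1a, Cdkn2a and Gdf15 have 2 annotated starts each. Both strands were searched for the p53 half-site, a motif of 10 letters, for the GC box, which reads GGGCGG, for the CAAT box, which reads CCAAT, for the TATA box, which reads TATAAA, and for the AP-1 site, which reads TGANTCA. Of all 32851 such windows 8.36% held the p53 half-site, 35.7% the GC box, 37.4% the CAAT box, 13.6% the TATA box and 7.81% the AP-1 site, and matches of different motifs were allowed to overlap. The half-site was present in windows of 5 of the 10 genes, at −73 and −51 from the upstream Cdkn1a start, −75 in Trp53, −186 in Mdm2, −185 in Ccng1 and −201 in Bax, counting to the first base of the match. No match lay in the windows of Cdkn2a, Cdkn2b, Gdf15, Phlda3 or Sfn, which says only that these letters are not in these windows. The upstream Cdkn1a window, with its pair of matches, and those of Ccng1 and Bax are shown because these genes went together in AT2 cells, as described later, and those of Phlda3 and Sfn because they went with Cdkn1a without a match. Capitals mark matches to any of the motifs searched, on either strand, and each window is written 5′ to 3′ on the strand of its gene.
Cdkn1a, chr17:29090729-29091028, plus strand: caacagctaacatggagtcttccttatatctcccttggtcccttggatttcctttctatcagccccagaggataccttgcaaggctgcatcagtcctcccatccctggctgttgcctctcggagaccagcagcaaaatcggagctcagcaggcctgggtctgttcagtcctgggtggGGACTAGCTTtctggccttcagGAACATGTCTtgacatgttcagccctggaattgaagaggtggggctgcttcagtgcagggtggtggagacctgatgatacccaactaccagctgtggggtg
Ccng1, chr11:40755237-40755536, minus strand: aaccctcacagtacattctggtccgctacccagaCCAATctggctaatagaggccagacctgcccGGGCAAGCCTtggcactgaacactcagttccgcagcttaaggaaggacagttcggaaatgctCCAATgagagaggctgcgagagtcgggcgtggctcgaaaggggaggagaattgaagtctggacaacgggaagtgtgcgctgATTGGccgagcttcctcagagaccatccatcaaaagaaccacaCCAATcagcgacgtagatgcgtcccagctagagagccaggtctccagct
Bax, chr7:45466849-45467148, minus strand: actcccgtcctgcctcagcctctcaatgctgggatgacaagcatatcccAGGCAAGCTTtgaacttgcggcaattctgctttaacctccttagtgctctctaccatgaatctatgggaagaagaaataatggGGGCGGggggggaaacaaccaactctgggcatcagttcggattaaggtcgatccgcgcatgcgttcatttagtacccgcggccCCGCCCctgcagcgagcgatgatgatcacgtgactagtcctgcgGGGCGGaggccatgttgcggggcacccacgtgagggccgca
Phlda3, chr1:135765835-135766134, plus strand: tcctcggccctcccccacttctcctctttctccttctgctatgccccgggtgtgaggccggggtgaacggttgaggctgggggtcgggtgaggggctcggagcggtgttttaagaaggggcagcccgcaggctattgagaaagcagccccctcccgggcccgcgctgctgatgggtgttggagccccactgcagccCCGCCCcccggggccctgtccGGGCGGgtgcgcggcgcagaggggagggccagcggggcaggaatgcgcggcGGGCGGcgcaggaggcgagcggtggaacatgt
Sfn, chr4:133602119-133602418, minus strand: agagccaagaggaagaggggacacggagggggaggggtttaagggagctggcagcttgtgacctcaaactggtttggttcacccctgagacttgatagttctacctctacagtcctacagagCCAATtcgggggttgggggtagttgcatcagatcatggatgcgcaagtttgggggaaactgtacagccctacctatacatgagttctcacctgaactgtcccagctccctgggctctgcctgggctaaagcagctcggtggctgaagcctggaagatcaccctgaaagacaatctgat
Of the letters printed in capitals, GGACTAGCTT and GAACATGTCT in Cdkn1a, GGGCAAGCCT in Ccng1 and AGGCAAGCTT in Bax are the p53 half-site matches. The remaining capitals are the GC box, the CAAT box or their reverse complements. A motif match is a description of the letters and not a measured binding site.

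The 10 genes fell into different orders across the 3 cell classes. Sfn (14-3-3 sigma, which holds cell cycle proteins in the cytoplasm of epithelial cells) and Gdf15 (a secreted stress cytokine of the TGF-β family) were highest in AT2 cells. Sfn ranged over the 5 libraries from 65.8 to 323 CPM in AT2 cells, 2.90 to 12.6 CPM in endothelial cells and 1.33 to 8.26 CPM in mesenchymal cells. Gdf15 ranged from 30.1 to 78.5 CPM in AT2 cells, 10.8 to 24.7 CPM in endothelial cells and 6.96 to 28.0 CPM in mesenchymal cells. For both genes the lowest AT2 library lay above the highest library of the other classes. For Gdf15 this was narrow. In day 21 Itgb1 fl/fl lungs it was at 30.1 CPM (22.8 to 38.9) in AT2 and 28.0 CPM (19.8 to 38.4) in mesenchymal cells, with overlapping intervals.

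Cdkn1a, Phlda3 (an inhibitor of AKT), Bax (a pore-forming protein of the mitochondrial death pathway) and the p15 gene Cdkn2b were highest in endothelial cells in each library, and Trp53 was high in both endothelial and mesenchymal cells. Cdkn1a ranged from 222 to 747 CPM in endothelial cells, 79.8 to 174 CPM in AT2 cells and 81.6 to 220.1 CPM in mesenchymal cells. Phlda3 ranged from 138 to 260.2 CPM in endothelial cells, 97.5 to 139 CPM in mesenchymal cells and 3.89 to 45.8 CPM in AT2 cells. Endothelial and mesenchymal Phlda3 levels met at their edges, while all 5 AT2 libraries lay below both. Bax was 184 to 220.0 CPM in endothelial cells against 43.8 to 75.1 CPM in AT2 and 57.8 to 100.2 CPM in mesenchymal cells. Trp53 was 54.3 to 80.7 CPM in endothelial and 51.2 to 63.3 CPM in mesenchymal cells, which overlap and which in the PBS library stood in the opposite order (54.3 and 60.7 CPM), against 3.89 to 20.6 CPM in AT2 cells. Cdkn2b was 23.5 to 100.2 CPM in endothelial cells, above its 4.15 to 12.7 CPM in AT2 and 1.47 to 6.63 CPM in mesenchymal cells in each library.

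Cdkn2a, which encodes p16 and p19ARF from separate first exons, had no UMI in any of the AT2 cells. That is 0 of 119, 355 and 26 cells at day 7 and 0 of 176 and 1240 cells at day 21. A count of 0 allows up to 2.65, 1.06 and 11.7 CPM in the day 7 libraries and 1.55 and 0.279 CPM in the day 21 libraries (3 counts of the total), so the bound is tightest in day 21 Itgb1 iKO cells. Endothelial cells held Cdkn2a at 4.95 to 11.5 CPM in the 5 libraries, with a UMI in 0.968 to 1.68% of cells. Which of the products these UMIs come from was not separated.

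**Figure D1:**
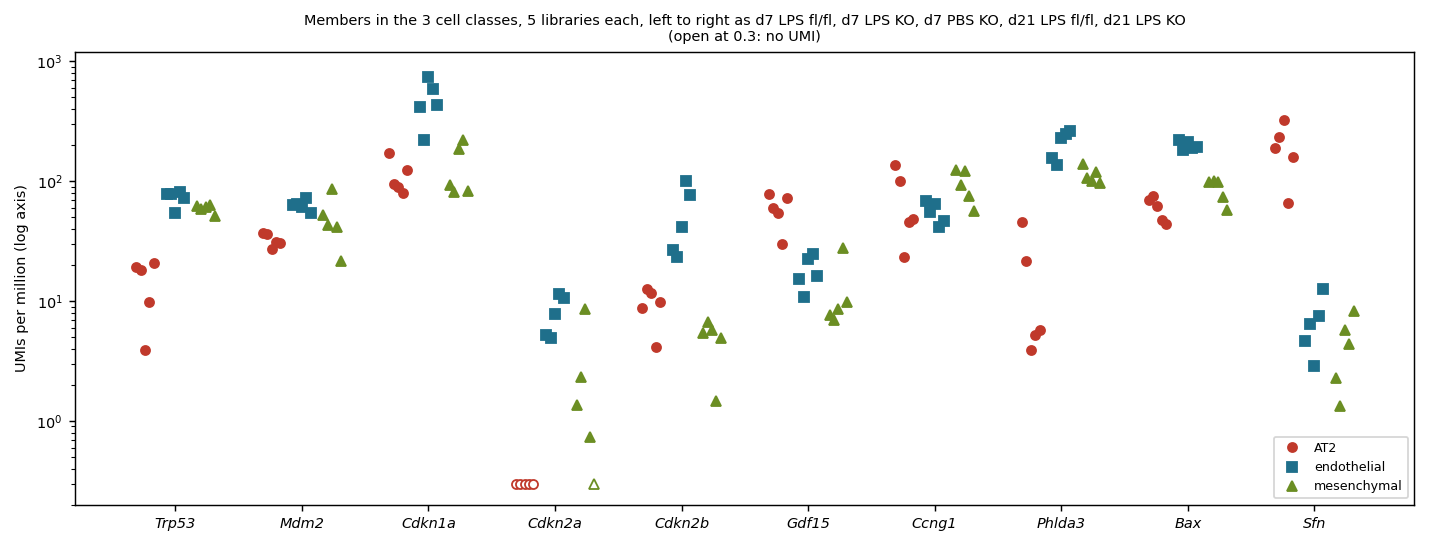
Level of each of the 10 genes (CPM, log axis) in AT2 (circles), endothelial (squares) and mesenchymal cells (triangles), 1 point for each of the 5 libraries, where KO is Itgb1 iKO and open points at 0.3 had no UMI. Sfn stands between 65.8 and 323 CPM in AT2 cells and at or below 12.6 CPM elsewhere, Phlda3 lies at 3.89 to 45.8 CPM in AT2 cells against 138 to 260.2 CPM in endothelial cells, and Cdkn2a has no UMI in AT2 cells.

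These class differences were tested on UMIs summed per mouse, with the mouse as a block, by edgeR's quasi-likelihood test (adjusted over all genes tested, threshold 0.05). At day 7, 7 of the 9 genes that could be tested differed between AT2 and endothelial cells, where 59.6% of all genes tested did. Sfn was higher in AT2 cells by 6.00 ± 0.18 (log2 fold change ± SE), Gdf15 by 3.16 ± 0.26 and Ccng1 (cyclin G1, a p53 target that binds a phosphatase) by 1.66 ± 0.17. Phlda3 (−1.55 ± 0.21), Trp53 (−1.34 ± 0.20), Bax (−0.74 ± 0.13) and Cdkn1a (−0.66 ± 0.17) were lower. Mdm2 (−0.29 ± 0.18) and Cdkn2b (−0.33 ± 0.30) did not pass. At day 21 all 9 genes tested differed, against 68.8% of all genes, and Phlda3 (−4.92 ± 0.17) and Cdkn2b (−2.59 ± 0.24) were far lower in AT2 cells while Sfn (4.37 ± 0.23) and Gdf15 (2.63 ± 0.41) were higher. Genes low in 1 class entered these fits through the class where they were high, so the filter in part set these differences. At day 7 these were Trp53 and Cdkn2b, through endothelial cells. At day 21 they were Phlda3 and Cdkn2b through endothelial cells and Sfn and Gdf15 through AT2 cells. A share near that of all genes says only that most genes differ between these cell types.

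Against mesenchymal cells, 6 of 8 genes tested differed at day 7 (56% of all genes), and 1 of 4 at day 21 (50.8%), namely Phlda3, lower in AT2 cells by −4.09 ± 0.35. At day 7 Sfn (6.61 ± 0.28), Gdf15 (3.9 ± 0.38), Cdkn1a (0.82 ± 0.30) and Ccng1 (0.53 ± 0.21) were higher and Phlda3 (−1.23 ± 0.29) and Trp53 (−1.14 ± 0.26) lower in AT2 cells. Mesenchymal cells held less Cdkn1a (−1.61 ± 0.27), Cdkn2b (−1.39 ± 0.33) and Bax (−0.92 ± 0.13) and more Ccng1 (1.04 ± 0.13) than endothelial cells at day 7, which makes 4 of 9 genes against 51.5% of all genes. The same 4 of 7 genes were called at day 21, against 42.9% of all genes, with Cdkn2b at −4.45 ± 0.77. Within mesenchymal cells Sfn, Gdf15 and Cdkn2b were too low to test on either day, and Bax and Ccng1 at day 21. Within AT2 cells Trp53 was too low at day 7 and Phlda3 at day 21. These genes entered the fits of this paragraph through the other class, so the filter in part set their differences. The AT2 sums hold a large surfactant fraction: with library totals in place of TMM scaling (the trimmed mean of M-values, which sets the typical gene to no change) the median of all genes was −0.73 for AT2 over endothelial cells at day 7 and −0.63 at day 21. Scaled by totals, Cdkn1a (0.47) and Ccng1 (0.17) no longer differed between AT2 and mesenchymal cells at day 7, nor Ccng1 (0.13) between AT2 and endothelial cells at day 21. On the same scale Mdm2 (−0.87) and Cdkn2b (−0.91) passed as lower in AT2 than in endothelial cells at day 7, and Phlda3 (−0.47), Mdm2 (−0.43), Trp53 (−0.38) and Gdf15 (−1.15) at day 7 and Phlda3 (−0.79) at day 21 passed as lower in mesenchymal than in endothelial cells. With TMM, Phlda3 and Trp53 were not told apart between these last classes on either day (edgeR's quasi-likelihood test).

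Free RNA puts some UMIs into the wrong class. AT2 marker genes stood in endothelial cells at 1.5, 2.38 and 0.576% of their AT2 level in the day 7 libraries (Itgb1 fl/fl LPS, Itgb1 iKO LPS, Itgb1 iKO PBS) and at 1.25 and 5.75% at day 21 (Itgb1 fl/fl, Itgb1 iKO). At those shares Sfn would reach 2.85, 5.59 and 1.86 CPM and 0.821 and 9.13 CPM in endothelial cells, where 4.68, 6.44 and 2.90 CPM and 7.58 and 12.6 CPM were measured. The measured level exceeded this background by 0.849 to 6.76 CPM. In the other direction, endothelial markers stood in AT2 cells at 0.318 to 1.01% of their endothelial level, a share that puts Cdkn1a at 1.55 to 7.54 CPM in AT2 cells, far below the 79.8 to 174 CPM measured.

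In LPS-treated lungs at day 7, no call was made among the p53 genes that could be tested between Itgb1 iKO and Itgb1 fl/fl AT2 cells. Of the 7 genes abundant enough to test, 0 passed with edgeR's quasi-likelihood test, 1 (Cdkn1a) had an unadjusted p under 0.05 and 0 passed with DESeq2, where 1.61% of the 5086 genes tested passed (623 had an unadjusted p under 0.05). Trp53, Cdkn2a and Cdkn2b were too low to test. The 7 log2 fold changes had a median of −0.28, against 0.00 over all genes.

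The AT2 levels scattered widely among the mice of each group at day 7. Cdkn1a was at 149.6, 30.9 and 319 CPM in the 3 Itgb1 fl/fl mice and 160.2, 82.1 and 77.3 CPM in the 3 Itgb1 iKO mice. The Itgb1 iKO mice lay inside the range of the Itgb1 fl/fl mice, and the fitted change was −0.84 ± 0.36 (adjusted p = 0.332, edgeR's quasi-likelihood test). Left out in turn, single mice moved it from −1.18 to −0.31, the latter without Itgb1 fl/fl mouse 3, the mouse with the highest Cdkn1a. With no filter on low counts, Cdkn1a passed at −0.80 ± 0.21 (adjusted p = 0.0208 by the same test), so this call depends on that filter.

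The same mouse, Itgb1 fl/fl mouse 3, was highest in its group for 8 of the 9 genes with UMIs, Trp53 being the exception. Phlda3 was at 27.6, 18.5 and 104.7 CPM in Itgb1 fl/fl and 53.4, 19.0 and 11.6 CPM in Itgb1 iKO mice (−1.0 ± 0.51, adjusted p = 0.43, edgeR's quasi-likelihood test, and −1.59 to −0.19 as single mice were left out). Ccng1 was at 96.4, 136 and 233 CPM in Itgb1 fl/fl and 273, 78.5 and 71.5 CPM in Itgb1 iKO mice. Bax was at 53.1, 74.1 and 109.5 CPM in Itgb1 fl/fl and 113, 79.7 and 63.8 CPM in Itgb1 iKO mice. For all 3 genes the groups overlapped, and the highest Itgb1 iKO value came from mouse 1 each time.

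A single AT2 cell weighed on that mouse. In Itgb1 iKO mouse 1 at day 7, 1 cell of 15270 UMIs held 38 of the 92 Ccng1 UMIs of the mouse and also 17 Cdkn1a UMIs. Itgb1 fl/fl mice 2 and 3 gave 20 and 17 AT2 cells, so their levels rest on few cells too.

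Sfn was at 191, 209.9 and 290.4 CPM in the Itgb1 fl/fl and 128, 284 and 182 CPM in the Itgb1 iKO mice of day 7, which overlap (−0.21 ± 0.24, adjusted p = 0.818, edgeR's quasi-likelihood test). Gdf15 was at 27.6, 61.8 and 148 CPM in Itgb1 fl/fl and 59.3, 71.4 and 38.7 CPM in Itgb1 iKO mice (−0.29 ± 0.40). Mdm2 was at 27.6, 24.7 and 57.1 CPM in Itgb1 fl/fl and 29.7, 41.7 and 32.9 CPM in Itgb1 iKO mice (−0.01 ± 0.34). Each Itgb1 iKO range of these genes overlapped the Itgb1 fl/fl range.

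Untested at day 7 for want of UMIs, Trp53 ranged from 14.3 to 43.2 CPM in the Itgb1 fl/fl and from 17.8 to 21.4 CPM in the Itgb1 iKO mice, and Cdkn2b from 0 to 23.8 CPM and from 10.7 to 15.5 CPM. PBS-treated Itgb1 iKO mice gave 4, 2 and 9 AT2 cells and are described by their library alone. There Sfn stood at 323 CPM (257 to 401), Cdkn1a at 89.6 CPM (56.8 to 134), Gdf15 at 54.5 CPM (29.8 to 91.5) and Ccng1 at 23.4 CPM (8.57 to 50.9), the last below the 101 CPM (89.9 to 114) of LPS-treated Itgb1 iKO cells. Phlda3 was at 3.89 CPM (0.0986 to 21.7) from 1 UMI and 21.5 CPM (16.5 to 27.6) with LPS, with overlapping intervals. None of the PBS mice reached the minimum of 10 AT2 cells set for the fits, so LPS was not tested against PBS in AT2 cells.

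**Figure D2:**
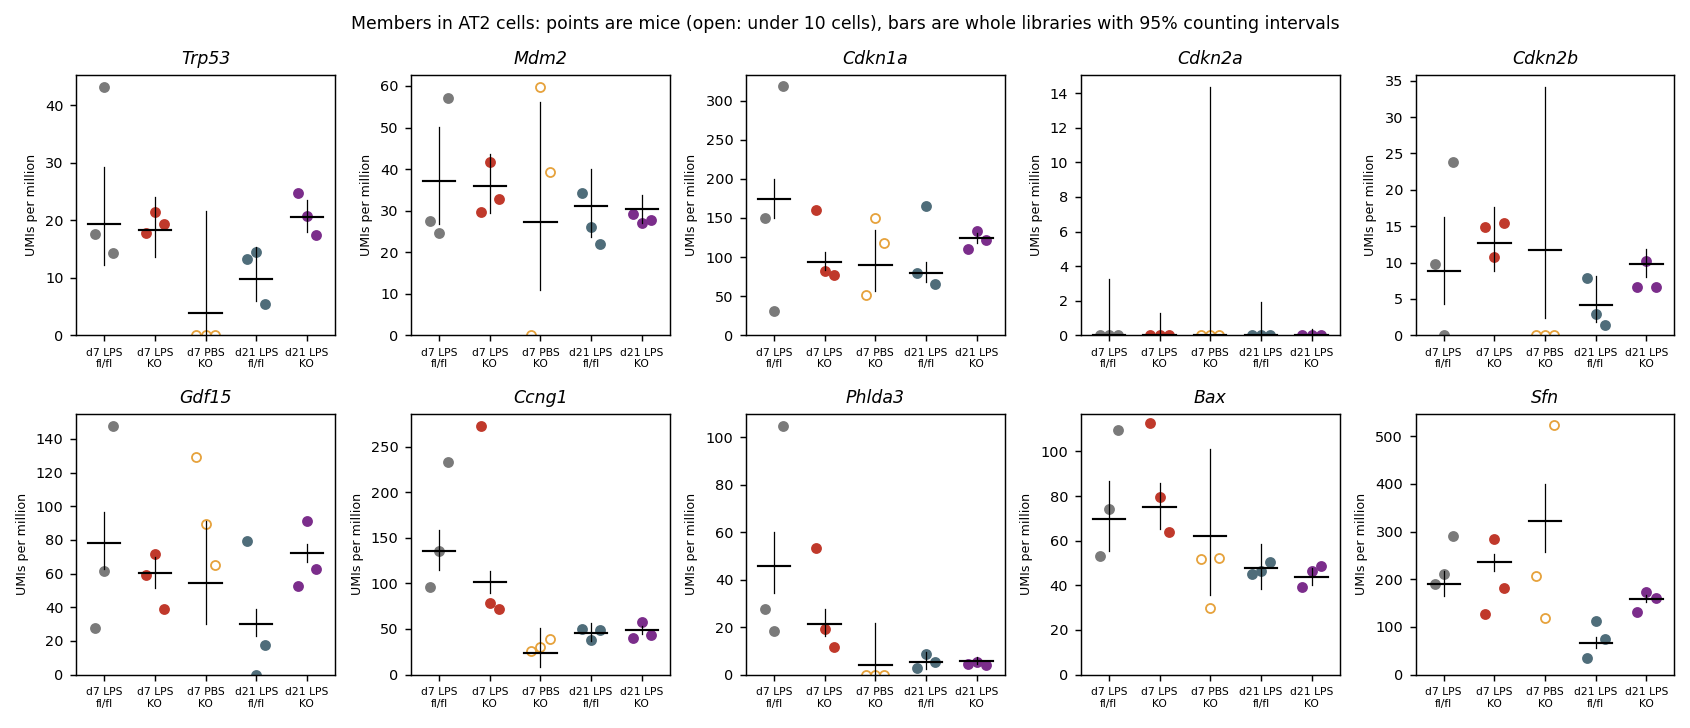
AT2 levels of each gene (CPM, linear axes from 0), with 1 point for each mouse (open where the mouse gave under 10 AT2 cells) and a bar with its 95% counting interval for each whole library, where KO is Itgb1 iKO. At day 21 the 3 Itgb1 iKO mice lie above the 3 Itgb1 fl/fl mice for Sfn (131 to 173 against 34.3 to 113 CPM) and Trp53 (17.4 to 24.8 against 5.47 to 14.5 CPM), while at day 7 the groups overlap for every gene with UMIs.

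At day 21 Sfn was higher in Itgb1 iKO than in Itgb1 fl/fl AT2 cells. It stood at 34.3, 113 and 73.9 CPM in the 3 Itgb1 fl/fl mice and 131, 173 and 161 CPM in the 3 Itgb1 iKO mice. Every Itgb1 iKO mouse lay above every Itgb1 fl/fl mouse. The change was 0.98 ± 0.21 on the log2 scale (adjusted p = 0.00496, edgeR's quasi-likelihood test, 3 mice against 3), and Sfn was the 1 of 7 genes tested that passed. Of all 8807 genes tested 3.75% passed, 1.46% in the upward direction, and DESeq2 also called 1 of the 7. Without Itgb1 fl/fl mouse 1, the hashtag of mixed sex and the lowest Sfn, the change was 0.71 ± 0.19 (adjusted p = 0.0372, edgeR's quasi-likelihood test). Without Itgb1 fl/fl mouse 3 it was 0.98 ± 0.27 and no longer passed (adjusted p = 0.0563, edgeR's quasi-likelihood test). Among the mice that carried mainly Xist, Itgb1 iKO mouse 1 had 131 CPM and Itgb1 fl/fl mice 2 and 3 had 113 and 73.9 CPM.

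The share of AT2 cells with an Sfn UMI is given as a description, since its intervals cover counting error only. With every cell drawn down to 2000 UMIs, 21.0% (18.7 to 23.4) of Itgb1 iKO cells and 8.0% (4.44 to 13.1) of Itgb1 fl/fl cells of day 21 kept an Sfn UMI, and undrawn the shares were 51.5% and 33.5%, at medians of 8312 and 11251 UMIs a cell. Among singly tagged cells the drawn shares were 3.03, 15.6 and 5.97% in the Itgb1 fl/fl and 18.8, 25.9 and 25.1% in the Itgb1 iKO mice, and the mice of the groups did not overlap. In endothelial cells, where Sfn was low, 2.84 and 1.77% of cells had a UMI, at medians of 1993 and 2219 UMIs a cell. Their Sfn level was 9.95 to 18.3 CPM in the Itgb1 iKO and 0 to 3.88 CPM in the Itgb1 fl/fl mice of day 21. It was too low to test, and the part of free AT2 RNA in it was not tested. At day 7 the drawn shares in AT2 cells were 25.4% in Itgb1 iKO and 24.8% in Itgb1 fl/fl, above the day 21 Itgb1 fl/fl share. Cells without a single tag also enter these library shares. Among singly tagged cells of day 7 the drawn shares were 18.5, 5.56 and 17.6% in Itgb1 fl/fl and 26.8, 28.3 and 30.4% in Itgb1 iKO mice. These did not overlap either, although the Sfn levels of the day 7 mice did. Itgb1 fl/fl mice 2 and 3 of day 7 gave only 18 and 17 drawn cells.

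Gdf15 and Trp53 went the same way at day 21 without passing. Gdf15 was at 79.1, 0 and 17.8 CPM in Itgb1 fl/fl and 52.6, 91.0 and 62.5 CPM in Itgb1 iKO mice, so that the mixed-sex hashtag alone fell within the Itgb1 iKO range. The change was 1.08 ± 0.41 (adjusted p = 0.167, edgeR's quasi-likelihood test) and, without that hashtag, 2.41 ± 0.43 (adjusted p = 0.00143 by the same test). Gdf15 was also called with no filter on low counts (1.13 ± 0.22) and with hashtags assigned by a share of at least 70% of the tag counts (1.79 ± 0.34). Its UMIs sat in few cells: the top 10% of AT2 cells held 90.6 to 100% of the Gdf15 UMIs of the 4 LPS libraries, and 1 day 21 Itgb1 iKO cell held 59.

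Trp53 was at 13.2, 14.5 and 5.47 CPM in Itgb1 fl/fl and 24.8, 20.8 and 17.4 CPM in Itgb1 iKO mice of day 21. The groups did not overlap, but the change of 0.99 ± 0.39 missed the threshold (adjusted p = 0.184, edgeR's quasi-likelihood test), also without the mixed-sex hashtag (1.2 ± 0.45). The Itgb1 fl/fl levels rest on 4 or 5 UMIs a mouse.

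Cdkn1a, Mdm2, Bax and Ccng1 did not pass the test at day 21. Cdkn1a was at 79.1, 165 and 65.7 CPM in Itgb1 fl/fl and 110.1, 133 and 122 CPM in Itgb1 iKO mice (0.24 ± 0.21, adjusted p = 0.636, edgeR's quasi-likelihood test). Itgb1 fl/fl mouse 2 set this value: without it Cdkn1a was 0.69 ± 0.17 and passed (adjusted p = 0.0242, edgeR's quasi-likelihood test), without mouse 3 it was −0.10, and without the mixed-sex hashtag 0.15. Mdm2 was at 34.3, 26.1 and 21.9 CPM in Itgb1 fl/fl and 29.2, 26.9 and 27.7 CPM in Itgb1 iKO mice, a change of −0.02 ± 0.25. Bax was at 44.8, 46.4 and 50.6 CPM against 39.4, 46.4 and 48.8 CPM (−0.20 ± 0.19), and Ccng1 at 50.1, 37.7 and 49.3 CPM against 39.8, 57.4 and 42.9 CPM (−0.11 ± 0.21). For all 4 genes the groups overlapped.

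Phlda3 and Cdkn2b were too low to test in AT2 cells of day 21, at 5.18 and 5.76 CPM and at 4.15 and 9.76 CPM in the Itgb1 fl/fl and Itgb1 iKO libraries. The day 7 libraries with LPS held Phlda3 at 45.8 CPM (34.2 to 60.1) in Itgb1 fl/fl and 21.5 CPM (16.5 to 27.6) in Itgb1 iKO AT2 cells. Ccng1 likewise stood at 136 and 101 CPM at day 7 and at 46.1 and 48.8 CPM at day 21. The days were separate libraries, differently enriched, and were set side by side without a test.

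Some other markers also differed between the day 21 AT2 libraries, while the AT1 markers were close. The sums are of whole libraries and were not tested over mice. The 8 markers of Krt8+ transitional cells summed to 947 CPM in Itgb1 fl/fl and 1289 CPM in Itgb1 iKO AT2 cells, the 8 AT1 markers to 1821 and 1865 CPM and the 4 club cell markers to 157 and 357 CPM. The 14 immediate early genes, which tissue dissociation is known to raise, summed to 14378 and 20363 CPM, and 6 of the 14 passed the test as higher in Itgb1 iKO, led by Atf3 (1.26 ± 0.09), Ier3 (0.75 ± 0.17), Egr1 (0.52 ± 0.11) and Junb (0.48 ± 0.10). The part of these in the Sfn result was not tested. With library totals in place of TMM the median of all genes at day 21 was 0.11, and 260 genes were higher and 147 lower in Itgb1 iKO, against 129 and 201 with TMM; Sfn was called under both.

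**Figure D3:**
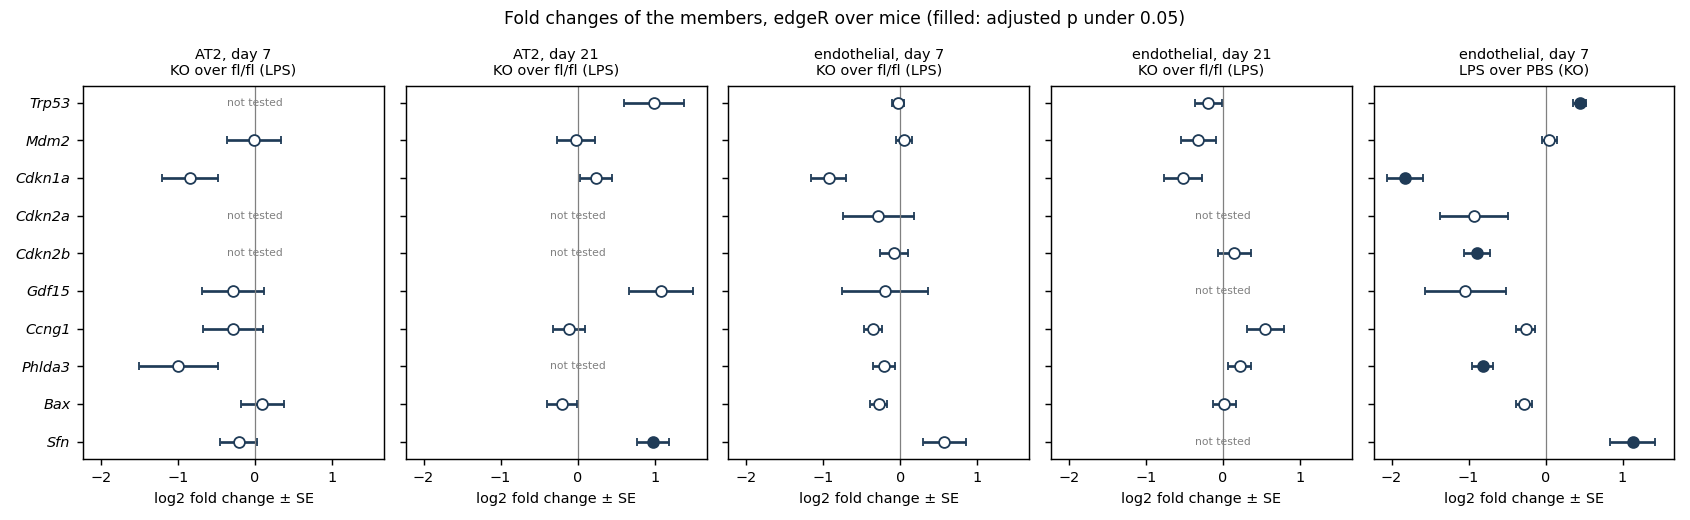
Log2 fold change with its standard error for each gene in 5 comparisons over mice by edgeR's quasi-likelihood test, filled where the adjusted p was under 0.05, where KO is Itgb1 iKO. Filled points are Sfn in AT2 cells at day 21 (0.98) and, for LPS over PBS in Itgb1 iKO endothelial cells, Cdkn1a (−1.82), Cdkn2b (−0.89), Phlda3 (−0.81), Trp53 (0.44) and Sfn (1.13).

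Within the AT2 class, cells with Cdkn1a UMIs differed from those without in several p53 target genes. The split was chosen after values had been seen, Cdkn1a UMIs rise with a cell's depth, and cells are not replicates, so this is a description without a test. Cells with at least 3 Cdkn1a UMIs numbered 22, 32 and 3 at day 7 (Itgb1 fl/fl LPS, Itgb1 iKO LPS, Itgb1 iKO PBS) and 17 and 175 at day 21 (Itgb1 fl/fl, Itgb1 iKO), and cells with none 65, 240 and 15 and 112 and 664. At the edge of this range, 6, 19, 4, 11 and 153 cells held exactly 2 and 5, 10, 1, 6 and 80 exactly 3. The median depth of the cells with at least 3 exceeded that of the cells with none in the LPS libraries, by 13673 against 7932 UMIs in the widest case (day 7 Itgb1 fl/fl) and 11218 against 10397 in the narrowest (day 21 Itgb1 fl/fl). The levels compared are CPM scaled to the UMIs of the cells in question. Cells of all mice in a library were pooled, so differences between mice enter the split, and the counting intervals do not cover them. At day 7 Itgb1 fl/fl mouse 3 was highest in its group for Cdkn1a and also for Phlda3, Bax, Ccng1 and Sfn. The part of single mice in the gaps between the cells was not tested.

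Phlda3 showed the widest gap. It was at 129 CPM (92.4 to 176) in cells with at least 3 Cdkn1a UMIs and 9.21 CPM (2.99 to 21.5) in cells with none in day 7 Itgb1 fl/fl lungs, and at 92.8 CPM (63.4 to 131) and 8.94 CPM (5.11 to 14.5) in day 7 Itgb1 iKO lungs. At day 21 it was at 35.7 CPM (14.3 to 73.5) and 0.878 CPM in Itgb1 fl/fl, the latter from a single UMI, and at 18.7 CPM (12.8 to 26.4) and 3.14 CPM (1.83 to 5.03) in Itgb1 iKO lungs. The intervals stood apart in all 4 LPS libraries.

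Bax, Ccng1 and Sfn were also higher in the cells with at least 3 Cdkn1a UMIs, though not with separate intervals in every library. Bax was at 123 against 46.0 CPM and 174 against 49.2 CPM at day 7 (Itgb1 fl/fl, Itgb1 iKO) and at 71.3 against 44.8 CPM and 64.9 against 37.2 CPM at day 21, with overlapping intervals in day 21 Itgb1 fl/fl cells. Ccng1 was at 201 against 97.6 CPM and 328 against 54.2 CPM at day 7 and at 81.5 against 33.4 CPM and 57.3 against 45.1 CPM at day 21, so its gap was narrowest in day 21 Itgb1 iKO cells, where the intervals overlapped (46.5 to 69.8 and 39.6 to 51.1). The day 7 Itgb1 iKO value includes the cell with 38 Ccng1 UMIs. Sfn was at 278 against 166 CPM and 284 against 222 CPM at day 7 and at 239.5 against 39.5 CPM and 274 against 115 CPM at day 21, with overlapping intervals in day 7 Itgb1 iKO cells (231 to 346 and 201 to 245).

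Mdm2 and Trp53 did not follow Cdkn1a. Mdm2 was at 42.1 against 29.5 CPM and 46.4 against 28.5 CPM at day 7, and at 10.2 against 36.9 CPM and 27.5 against 33.5 CPM at day 21, with overlapping intervals. Trp53 was at 12.9 against 23.9 CPM and 23.2 against 21.2 CPM at day 7, and at 25.5 against 6.14 CPM and 14.6 against 21.8 CPM at day 21. Gdf15 was higher with Cdkn1a in each LPS library, at 107 against 38.7 CPM, 95.7 against 45.3 CPM, 71.3 against 35.1 CPM and 115 against 47.5 CPM, with overlapping intervals in day 21 Itgb1 fl/fl cells. The summed markers of Krt8+ transitional cells had a higher median in the cells with at least 3 Cdkn1a UMIs, at 909.8 against 794 CPM and 1556 against 1395 CPM at day 7 and 1118 against 622 CPM and 1500.1 against 932 CPM at day 21. Medians of the club cell markers had no common direction, at 276 against 520 CPM and 325 against 311 CPM at day 7 and 79.8 against 72.3 CPM and 119 against 161 CPM at day 21.

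**Figure D4:**
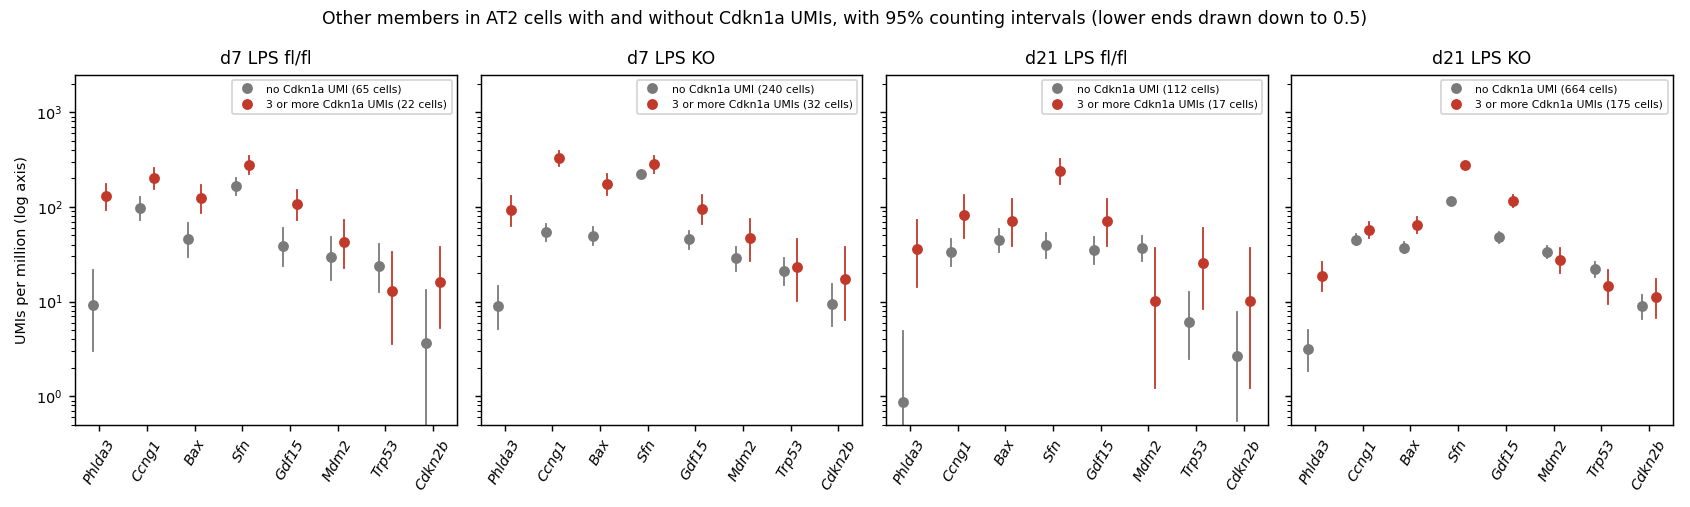
Level of the other genes (CPM, log axis) with 95% counting intervals in AT2 cells of the 4 LPS libraries that held no Cdkn1a UMI (grey) or at least 3 (red), where KO is Itgb1 iKO. Phlda3 lies higher in the red cells with separate intervals in all 4 panels (129 against 9.21 CPM in day 7 Itgb1 fl/fl lungs), while the Mdm2 intervals overlap in each.

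In endothelial cells of Itgb1 iKO lungs at day 7, the p53 targets Cdkn1a and Phlda3 were lower with LPS than with PBS while Trp53 itself was higher. Of the 10 genes 5 passed edgeR's quasi-likelihood test, and DESeq2 also called 5, where 26.8% of the 11668 genes tested passed (14.5% higher and 12.3% lower). Of the 5, 2 rose and 3 fell. The SP-C promoter does not target endothelial cells, so these are neighbours of the deleted AT2 cells, and library and treatment cannot be told apart.

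Cdkn1a was at 907, 801 and 471 CPM in the 3 PBS mice and 224, 167 and 268 CPM in the 3 LPS mice. The groups did not overlap, and the change was −1.82 ± 0.23 (adjusted p = 0.00026, edgeR's quasi-likelihood test). A Cdkn1a UMI was seen in 62.8% of endothelial cells with PBS and 29.8% with LPS, and in 65.4 and 27.0% once cells were drawn down to 2000 UMIs. Without PBS mouse 1, which leaves Y-carrying mice only, Cdkn1a was −1.63 ± 0.22.

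Phlda3 was at 183, 233 and 257 CPM with PBS and 152, 117 and 139 CPM with LPS (−0.81 ± 0.14, adjusted p = 0.0013, edgeR's quasi-likelihood test). Cdkn2b, an inhibitor of CDK4 and CDK6, was at 38.5, 34.6 and 44.7 CPM with PBS and 22.2, 26.6 and 18.5 CPM with LPS (−0.89 ± 0.17, adjusted p = 0.00266 by edgeR's quasi-likelihood test). Trp53 was at 53.8, 57.3 and 52.2 CPM with PBS and 75.8, 75.6 and 85.5 CPM with LPS (0.44 ± 0.08, adjusted p = 0.00273, edgeR's quasi-likelihood test). For each of the 3 genes the groups did not overlap, though the share of all genes that separated so was not counted. Each kept its call without PBS mouse 1 (−0.94, −0.91 and 0.43).

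Sfn rose from 2.42, 2.96 and 2.15 CPM with PBS to 7.23, 5.58 and 4.90 CPM with LPS (1.13 ± 0.29, adjusted p = 0.0144, edgeR's quasi-likelihood test). At the AT2 marker shares given earlier, free AT2 RNA would give 1.86 CPM with PBS and 5.59 CPM with LPS, of 2.90 and 6.44 CPM measured over the libraries, and its part in the rise was not tested. Without PBS mouse 1 the change was 1.11 and passed. The call was lost without LPS-treated mouse 1 (0.95, adjusted p = 0.0585) or PBS mouse 3 (1.03, adjusted p = 0.0533, edgeR's quasi-likelihood test throughout).

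Not called were Gdf15 (−1.04 ± 0.53), Cdkn2a (−0.93 ± 0.44), Bax (−0.28 ± 0.11), Ccng1 (−0.26 ± 0.12) and Mdm2 (0.05 ± 0.10). Cdkn2a was at 2.75, 9.88 and 10.9 CPM with PBS and 4.82, 3.80 and 4.36 CPM with LPS, and passed without PBS mouse 1 (−1.36 ± 0.26, adjusted p = 0.00358, edgeR's quasi-likelihood test). Gdf15 passed without LPS-treated mouse 3 (−1.95 ± 0.52). With library totals in place of TMM the median of all genes was 0.11, with 2367 higher and 951 lower against 1689 and 1440, and the same number of the 10 genes, 5, was called.

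Genes of other lists passed in the same comparison, to be read against the 26.8% of all genes that passed (14.5% higher and 12.3% lower), and those named here were chosen after their values were seen. Of 27 other p53 target genes tested 6 fell and 5 rose, with Pmaip1 (NOXA, a BH3-only death protein, −1.05), Fas (a death receptor, −1.0), Trp53inp1 (−0.58) and Btg2 (an antiproliferative gene, −0.49) lower and Psrc1 (a spindle protein, 5.66, from 5 UMIs with PBS), Plk2 (0.87) and Apaf1 (0.49) higher. Of 18 cell cycle genes 9 rose and Ccnd3 fell (−0.54). Of those that rose, E2f1 changed by 4.39 from 18 UMIs with PBS. Ccne1 stood at 0.0965 CPM (0.0117 to 0.349) from 2 UMIs with PBS and 8.77 CPM (7.3 to 10.5) with LPS. E2f2 had 0 UMIs with PBS and 59 with LPS (4.17 CPM), so it entered the fit through the LPS groups and no fold is given. Of 12 p53 regulators 3 rose, among them the checkpoint kinases Chek1 (3.1, from 8 UMIs with PBS) and Chek2 (1.65). Of 18 BCL2 family and caspase genes 6 rose, among them Birc5 (5.70), and 3 fell, with Bcl2l1 (−1.06). Psrc1, E2f1, Ccne1 and Chek1, with so few UMIs with PBS, likewise entered the fit through the LPS groups. The filter thus in part set their changes, and the size of the Birc5 change is to be read with the same care. Of the 20 senescence genes tested 7 rose, with Areg (4.10) and Lmnb1 (2.52), and 6 fell, with Igfbp3 (−1.07) and Icam1 (−0.83). Areg was at 787 CPM with PBS and 916 CPM with LPS in Itgb1 iKO AT2 cells, and the part of free AT2 RNA in its endothelial rise was not tested. Lmnb1 (lamin B1) is known to be lost in senescence, and the called genes are listed for what moved, not for the name of their list. None of the 6 other 14-3-3 genes passed (edgeR's quasi-likelihood test, counts over all genes tested). The 14 immediate early genes summed to 16946 CPM with PBS and 12285 CPM with LPS, with 5 of 14 lower and 1 higher, and their part in the Cdkn1a change was not tested.

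**Figure D5:**
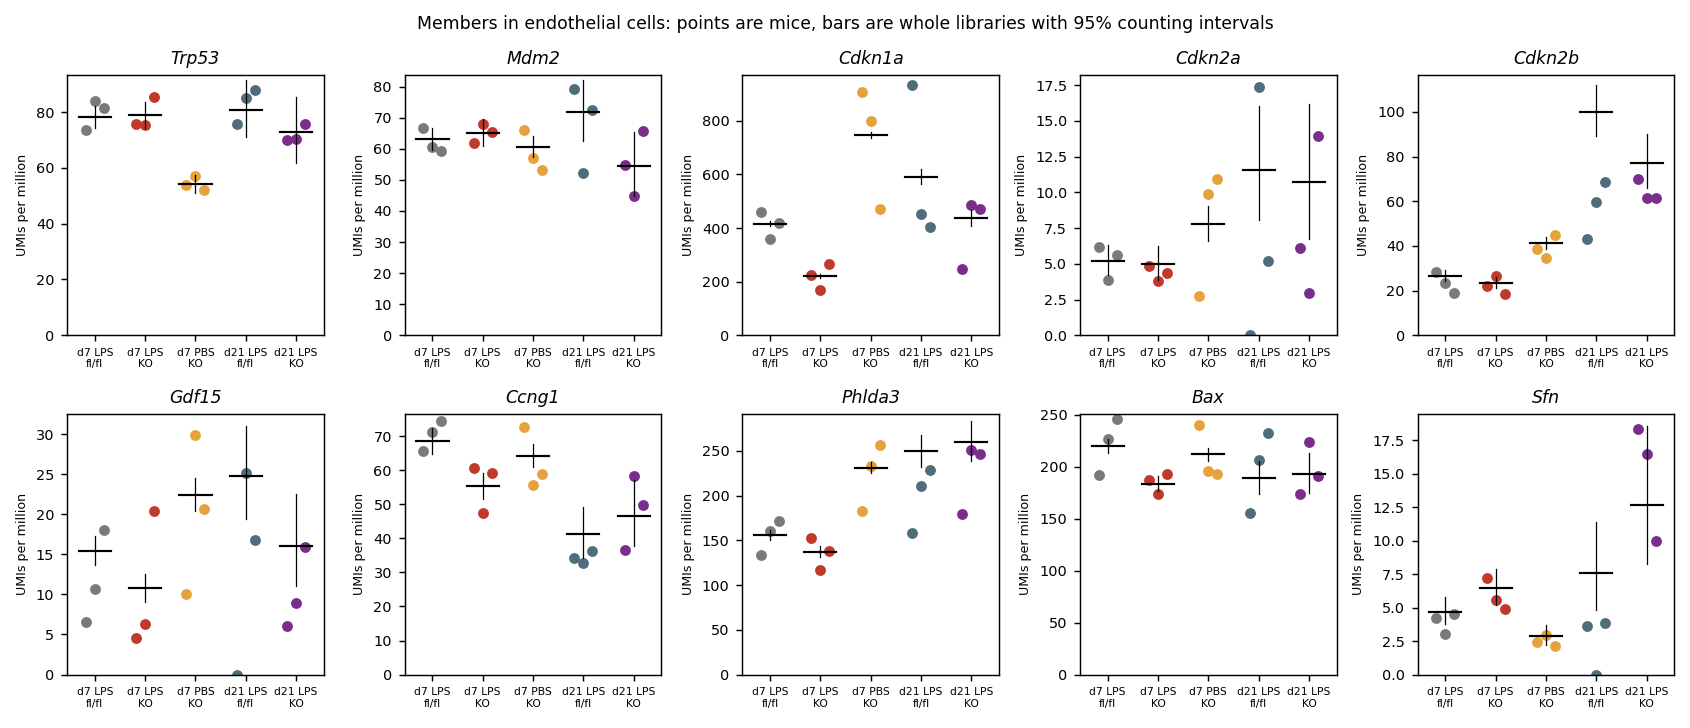
Endothelial levels of each gene (CPM, linear axes from 0), with 1 point for each mouse and a bar with its 95% counting interval for each whole library, where KO is Itgb1 iKO. At day 7 the PBS mice lie above the LPS-treated Itgb1 iKO mice for Cdkn1a (471 to 907 against 167 to 268 CPM), Phlda3 and Cdkn2b and below them for Trp53. The day 21 Cdkn2b bars lie above all their mice because cells without a single tag also enter the library.

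Between LPS-treated Itgb1 iKO and Itgb1 fl/fl lungs the endothelial p53 genes did not pass at day 7. With edgeR's quasi-likelihood test 0 of 10 passed, 3 had an unadjusted p under 0.05 (Cdkn1a, Ccng1 and Bax) and DESeq2 called 1 (Cdkn1a), where 2.09% of the 11668 genes tested passed. Cdkn1a was at 458, 359 and 420.1 CPM in Itgb1 fl/fl and 224, 167 and 268 CPM in Itgb1 iKO mice, groups that did not overlap, and its change was −0.93 ± 0.23 (adjusted p = 0.064, edgeR's quasi-likelihood test). Cdkn1a passed with DESeq2 (−0.93 ± 0.28, adjusted p = 0.0398), with only these 2 groups in the fit (−0.92 ± 0.16, adjusted p = 0.0173 by edgeR) and with no filter on low counts (−0.94 ± 0.19, adjusted p = 0.00842 by edgeR). Ccng1 was at 65.7, 71.2 and 74.5 CPM in Itgb1 fl/fl and 60.8, 47.4 and 59.3 CPM in Itgb1 iKO mice (−0.35 ± 0.12, adjusted p = 0.174, edgeR's quasi-likelihood test), also without overlap. The same LPS-treated Itgb1 iKO mice enter this comparison and that with PBS, so the changes of Cdkn1a in them are not independent.

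At day 21, 0 of 7 genes tested passed in endothelial cells with edgeR's quasi-likelihood test or DESeq2 and 1 (Ccng1) had an unadjusted p under 0.05, where 1.78% of the 7244 genes tested passed. Cdkn1a was at 934, 454 and 404.5 CPM in Itgb1 fl/fl and 247, 484 and 471 CPM in Itgb1 iKO mice, which overlap (−0.52 ± 0.25). The 934 CPM came from the mixed-sex hashtag, and without it the change was −0.02 ± 0.15. With all mice and no filter on low counts Cdkn1a passed (−0.54 ± 0.12, adjusted p = 0.000999, edgeR's quasi-likelihood test). Ccng1 was at 34.3, 32.8 and 36.2 CPM in Itgb1 fl/fl and 36.6, 58.3 and 49.7 CPM in Itgb1 iKO mice, without overlap (0.55 ± 0.25, adjusted p = 0.338, edgeR's quasi-likelihood test).

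Whether the genotype difference itself differed between AT2 and endothelial cells of the same mice was tested as an interaction. It passed for 0 of the 9 genes with AT2 UMIs at day 7 (1.25% of all genes) and 0 of 9 at day 21 (2%) with edgeR's quasi-likelihood test, where 2 and 4 of them had an unadjusted p under 0.05. Cdkn2a, without an AT2 UMI, could not show a difference. DESeq2 was not run on this design. The interaction of Cdkn1a at day 21 was 0.67 ± 0.22 (adjusted p = 0.0886, edgeR's quasi-likelihood test) and turned on single mice. It was 0.19 ± 0.21 without the mixed-sex hashtag, but 1.22 ± 0.22 (adjusted p = 1.35e-05) without Itgb1 fl/fl mouse 2 and 0.81 ± 0.23 (adjusted p = 0.0375) without Itgb1 iKO mouse 3, by edgeR's quasi-likelihood test. That of Gdf15 was 1.53 ± 0.60 and, without the hashtag, 3.37 ± 0.61 (adjusted p = 5.86e-06, edgeR's quasi-likelihood test). Gdf15 was too low to test in endothelial cells at day 21 and entered this fit through AT2 cells. The filter thus in part set this value, and it does not show an effect limited to AT2 cells. Those of Trp53 (1.15 ± 0.44) and Sfn (−1.38 ± 0.66) did not pass with or without it. The Sfn rise in AT2 cells is thus not shown to differ from the change in endothelial cells, where Sfn was too low to test at day 21.

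In mesenchymal cells 0 of 6 genes tested at day 7 and 0 of 2 at day 21 passed, and none had an unadjusted p under 0.05 (edgeR's quasi-likelihood test, 0 also by DESeq2), where 0.102 and 0.399% of all genes passed. Cdkn1a was at 198, 33.4 and 54.9 CPM in Itgb1 fl/fl and 179.7, 50.7 and 87.2 CPM in Itgb1 iKO mice at day 7. Mouse 1 was highest in both groups, and the ranges overlap. At day 21 Itgb1 iKO mouse 3 gave 8 mesenchymal cells and was left out of the fit, so 2 mice stood against 3, and Cdkn1a changed by −0.09 ± 0.40. Over whole libraries mesenchymal Cdkn1a was at 220.1 CPM (196 to 246) in Itgb1 fl/fl and 82.6 CPM (61.3 to 109) in Itgb1 iKO, a gap that the singly tagged mice (127, 133 and 134 CPM against 156 and 102 CPM) do not show.

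The wider p53 and senescence lists in AT2 cells are to be read against the 1.61% of all genes that passed at day 7 and 3.75% at day 21. At day 7, 0 of 11 other p53 targets, 0 of 4 p53 regulators, 0 of 4 cell cycle genes, 0 of 8 BCL2 family and caspase genes and 0 of 6 other 14-3-3 genes passed edgeR's quasi-likelihood test. The other p53 targets most abundant over the AT2 cells of all 5 libraries together were Btg2 (604 and 410.2 CPM in the Itgb1 fl/fl and Itgb1 iKO libraries, −0.73 ± 0.19, adjusted p = 0.0514) and Plk2 (116 and 114 CPM, −0.41 ± 0.31). Over the same cells the most abundant regulators were Mdm4 (0.20 ± 0.30), a partner of Mdm2, and Trp53bp2 (−0.17 ± 0.41). Ccnd1 (0.28 ± 0.21) and Ccnd3 (0.26 ± 0.25) led the cell cycle list, Mcl1 (0.44 ± 0.19) and Cycs (−0.40 ± 0.24) the death list and Ywhaz (0.05 ± 0.16) and Ywhae (0.06 ± 0.16) the 14-3-3 list. Of 8 senescence genes 1 passed, Areg (amphiregulin, an EGF receptor ligand, 338 and 916 CPM, 1.09 ± 0.24, adjusted p = 0.0205), while Icam1 (0.59 ± 0.16) did not. Of 14 immediate early genes 1 passed, Egr1, lower by −0.87 ± 0.21, with Jun at −0.61 ± 0.19 and Fos at −0.55 ± 0.19 not called.

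At day 21 in AT2 cells, 0 of 21 other p53 targets, 0 of 10 regulators, 0 of 12 cell cycle genes and 0 of 6 other 14-3-3 genes passed edgeR's quasi-likelihood test. Btg2 (340.5 and 401 CPM in the Itgb1 fl/fl and Itgb1 iKO libraries, 0.08 ± 0.11) and Plk2 (109 and 119.8 CPM, −0.26 ± 0.20) were again the other targets most abundant over all AT2 cells, Mdm4 (0.59 ± 0.20) and Trp53bp2 (0.01 ± 0.22) the most abundant regulators, and Ccnd1 (−0.42 ± 0.14) and Ccnd3 (−0.09 ± 0.14) the most abundant cell cycle genes. Ywhaz (0.04 ± 0.10) and Ywhae (−0.05 ± 0.11), the most abundant of the other 14-3-3 genes, stayed near 0. Of 13 senescence genes 3 rose, Vegfa (0.87 ± 0.17), Areg (0.69 ± 0.14) and Serpine2 (0.60 ± 0.14), and Igfbp6 fell (−0.98 ± 0.22). Areg and Vegfa are growth factor genes and Serpine2 a protease inhibitor, all known also outside senescence. Of 15 BCL2 family and caspase genes 1 rose, Mcl1 (an anti-apoptotic BCL2 relative, 311 and 500.3 CPM, 0.62 ± 0.11), with Cycs at −0.09 ± 0.15.

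In the endothelial genotype comparisons 2.09% of all genes passed at day 7 and 1.78% at day 21. Plk2 was the 1 of 27 other p53 targets that passed at day 7, higher in Itgb1 iKO (0.58 ± 0.12), and the 1 of 18 that passed at day 21, lower there (−0.57 ± 0.12). Of the senescence genes Areg passed at day 7 (2.98 ± 0.51, 1 of 20), and at day 21 3 of 11 passed, among them Igfbp7, higher (0.53 ± 0.13), and Igfbp4, lower (−0.52 ± 0.13). In AT2 cells of day 7 Areg was at 338 CPM in Itgb1 fl/fl and 916 CPM in Itgb1 iKO with LPS. The part of free AT2 RNA in its endothelial change was not tested. The immediate early list had 1 of 14 higher at day 7 (Nr4a1, 1.5) and 8 of 14 lower at day 21, where the interaction with AT2 cells passed for 9 of 14. Btg2 (−1.2 ± 0.19) and Plk2 (−0.95 ± 0.24) differed between AT2 and endothelial cells in their day 7 genotype change (edgeR's quasi-likelihood test of the interaction), along with 8 of 14 immediate early genes, all toward AT2 cells being lower. No list had a called gene in mesenchymal cells.

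The genes whose profile over the 15 class-by-library sums was most like that of a p53 gene are given as a description, since sums of 1 library share its depth and its free RNA. Among 6235 genes with at least 50 CPM in some sum, the highest Pearson r of log2(CPM + 1) was 0.983 for Trp53 (with Setd5), 0.973 for Phlda3 (Yif1b) and 0.980 for Bax (Stmn2). For Sfn it was 0.972 (Lrrk2, then Ly6c2 and Arg2), for Gdf15 0.945 (Eps8l1), for Mdm2 0.943 (Pex19) and for Cdkn2b 0.938 (Zfp710). Cdkn1a was followed by Rnf215 (0.920), Rxrb (0.918) and Lrp5 (0.915). Ccng1 was followed less closely by Ube2f (0.858), Trp53inp1 (0.830), itself among the other p53 targets, and Hsph1 (0.818).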

How the data were processed

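Single-cell RNA of 5 pooled mouse lung libraries was read from the deposited UMI counts. Per the labels and the study's methods the authors made these counts with Cell Ranger 3.1 on mm10, and Seurat 4.1.0 is named in the submitters' processing notes. The deposited counts carry no correction for free RNA and no filter on doublets. They hold 3469 to 11234 barcodes a library, among them barcodes that fail the limits on genes and mitochondrial UMIs used here. No doublet caller was run; the gates require UMIs of a single lineage. Hashtag counts, also deposited by the authors as counts, were used to assign cells to mice when exactly 1 tag in use was at least 4 times its background and had at least 10 counts. Where hashtags name separate mice, these are the replicates, although 1 library was made from all mice of each condition.

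The 10 genes, the other lists and the tests were chosen with earlier results of these data known. All 10 genes are named. From the other lists the text names, for each AT2 comparison, up to 4 called genes per list and direction with the largest change, and, where fewer than 2 were called, the 2 genes most abundant over the AT2 cells of all libraries. For likeness, the 3 genes with the highest Pearson r were considered among genes with at least 50 CPM in some sum. The lists held 28 other p53 targets, 14 p53 regulators, 18 cell cycle genes, 30 senescence genes, 20 BCL2 family and caspase genes, 6 14-3-3 genes and 14 immediate early genes, and the values of some of their genes are not reported here.

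UMIs were summed per class and mouse (at least 10 cells) and tested with edgeR 4.0.16 in R 4.3.3 (TMM, filterByExpr, quasi-likelihood F test, Benjamini-Hochberg adjustment over all genes tested, threshold 0.05), with 1 fit per class and day. Class comparisons and interactions kept the mouse as a block. DESeq2 1.42.0 was an alternative. Sums, intervals and thinning to 2000 UMIs used pandas 2.3.3, scipy 1.17.1 and numpy 2.4.6 under Python 3.11.15. Poisson and Clopper-Pearson 95% intervals cover counting error only. Bax overlaps a gene on the same strand, so its UMIs are uncertain. Gene IDs matched the annotation for 99.62%. On simulated counts for the day 21 AT2 comparison (8561 genes), 80 of 89 genes changed by 2 on the log2 scale and 57 of 111 changed by 1 were recovered, with 6 false calls. For day 7 AT2 cells (4802 genes) these were 83 of 92, 58 of 108 and 10.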

Additional observations from a re-analysis of the deposited data

How the results depend on the processing

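Of 113 log2 fold changes of the p53 genes, 37 were called. Of these, 0 changed sign under an alternative and 5 lost the call, while of the 76 not called 18 gained a call and 35 changed sign in some alternative. Most calls were differences between cell classes, for which mice were not left out in turn. The calls between groups were 1 in AT2 cells at day 21 and 5 for LPS over PBS in endothelial cells. Among these, Sfn lost its call in both comparisons when single mice were left out. With no filter on low counts, 154 genes (1 p53 gene) were called in AT2 cells at day 7, 2 p53 genes in AT2 cells at day 21, 368 genes (1 p53 gene) in endothelial cells at day 7, 319 (2 p53 genes) at day 21, 195 and 52 genes in mesenchymal cells at day 7 and day 21, 1 p53 gene in the day 21 interaction and 4 between AT2 and mesenchymal cells at day 21. With hashtags by a 70% share these were 2 p53 genes in AT2 cells at day 21, 33 genes in endothelial and 3 in mesenchymal cells at day 21, 1 p53 gene in the day 21 interaction and 3 between AT2 and mesenchymal cells at day 21. DESeq2 called 1 p53 gene in endothelial cells at day 7, 77 genes there at day 21 and 18 in mesenchymal cells at day 7. Only the 2 groups in the fit gave 1 p53 gene in endothelial cells at day 7. In mesenchymal cells at day 21, 4 genes were called with 3 lineage UMIs, 1 without cells over 2.5 times the median UMIs and 1 with totals without surfactant genes. Leaving out those deep cells gave 1 p53 gene in the day 21 interaction and 0 between AT2 and mesenchymal cells at day 21. Library totals without TMM, chosen after seeing the data, gave 1 p53 gene in the day 21 interaction (143 genes higher and 77 lower, against 76 and 96) and 8 between mesenchymal and endothelial cells at day 7. They moved the split of AT2 over endothelial genes to 1708 higher and 6326 lower at day 7 (from 2827 and 3567) and 1383 and 4502 at day 21 (from 2555 and 2546), of AT2 over mesenchymal genes to 981 and 2536 (from 1462 and 1655) and 682 and 1361 (from 991 and 948), of mesenchymal over endothelial genes at day 7 to 2336 and 3926 (from 2786 and 2942) and at day 21 to 748 and 1393 (from 996 and 1001), and of AT2 genes at day 7 to 44 and 28 (from 39 and 43). The cause of these changes was not tested.

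Leaving out each mouse in turn, genes called ranged from 38 to 111 in AT2 cells at day 7 and 193 to 314 at day 21, from 72 to 239 in endothelial cells at day 7 and 42 to 179 at day 21, from 2322 to 3220 for LPS over PBS, and from 3 to 30 and 1 to 16 in mesenchymal cells at day 7 and day 21. P53 genes called ranged from 0 to 2 in AT2 cells at day 21, 0 to 1 in endothelial cells at day 7, 4 to 6 for LPS over PBS and 0 to 1 in the day 21 interaction. No paired analysis was possible because the labels give no replicate number shared between groups, each condition being 1 library whose mice are numbered by hashtag alone. Levels of AT2 cells in PBS lungs rest on 26 cells, and fewer cells of a type cannot be told apart from less RNA per cell.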
